A study of Mus musculus with 4 samples.

Results

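A set of 10 germ cell and meiotic genes was read out in cells sorted from ESC-derived neuroectoderm: Morc1, Dmrt1, Sycp1, Sycp3, Dazl, Ddx4, Mael, Stk31, Asz1 and Dppa3. They are 10 of the 18194 genes that the arrays measured with a probe set of their own, and all 13 probe sets annotated to one of them alone were used, of 45101 in all. RNA came from day-4.5 aggregates of a mouse Rax::GFP ESC line, grown in floating serum-free culture (SFEBq) toward neuroectoderm and sorted by GFP. Rax::GFP- cells, defined only by the lack of reporter signal, were measured on 2 arrays, and Rax::GFP+ cells, which carry this rostral forebrain reporter, on 2 arrays. Both groups carry the GFP reporter at Rax, a homeobox gene of the early forebrain and eye field, both come from this single ESC line with no other treatment, and each RNA sample pools many aggregates. The 10 genes were chosen by their role together with their RMA values on these same arrays, that is, with the difference between GFP- and GFP+ cells known, so their differences are given as a description and without a test.

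Germline genes are used by primordial germ cells and by cells in meiosis, and are kept off in somatic tissue. Many of them have CpG-rich promoters that gain DNA methylation after implantation, when the naive pluripotent cells of the blastocyst pass into the epiblast. In ESCs the same promoters are also bound by a variant Polycomb complex, PRC1.6, which contacts DNA through the E-box factors Mga and Max and through E2f6. Several germline genes are nonetheless transcribed in pluripotent cells that are not germ cells.

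Promoters of 7 of the 10 genes were found in the RefSeq table (GRCm38.p6), as 8 windows of 300 bases that run from 250 bases before to 50 after a start site, with 2 start sites for Stk31. Morc1, Dmrt1 and Dppa3 were not matched. The rule that chose the genes read no sequence, but it took germline genes, a class in which such promoters are common, as described above. The CpG content and hexamers of these windows are therefore not independent of the choice. Shown here are the stretches before the start site of 6 genes, because 5 of them carry the E-box hexamer CACGTG and Dazl serves as the example without it. Letters run 5′ to 3′ on the strand of the gene, and capitals mark CACGTG or GCGGGA, with GCGGGA written TCCCGC where it lies on the other strand. The stretches are Sycp3 at chr10:88459437-88459586 (plus strand), Ddx4 at chr13:112652311-112652460 (minus strand), Mael at chr1:166238745-166238994 (minus strand), Stk31 at chr6:49395389-49395538 (plus strand), Sycp1 at chr3:102936101-102936250 (minus strand) and Dazl at chr17:50293621-50293770 (minus strand).
Sycp3: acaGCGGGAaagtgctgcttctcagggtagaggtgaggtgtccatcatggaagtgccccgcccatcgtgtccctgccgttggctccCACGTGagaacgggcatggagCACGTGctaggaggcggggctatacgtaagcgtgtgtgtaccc
Ddx4: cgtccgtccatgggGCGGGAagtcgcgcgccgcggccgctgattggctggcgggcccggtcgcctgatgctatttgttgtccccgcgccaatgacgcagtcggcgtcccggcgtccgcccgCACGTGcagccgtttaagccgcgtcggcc
Mael: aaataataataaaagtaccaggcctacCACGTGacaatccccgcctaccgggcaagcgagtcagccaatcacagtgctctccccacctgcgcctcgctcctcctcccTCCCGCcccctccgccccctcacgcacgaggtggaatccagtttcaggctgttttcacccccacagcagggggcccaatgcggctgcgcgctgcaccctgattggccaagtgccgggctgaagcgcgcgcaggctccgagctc
Stk31: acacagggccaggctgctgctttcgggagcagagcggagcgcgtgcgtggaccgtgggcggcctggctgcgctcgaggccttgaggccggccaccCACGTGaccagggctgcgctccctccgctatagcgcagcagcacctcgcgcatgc
Sycp1: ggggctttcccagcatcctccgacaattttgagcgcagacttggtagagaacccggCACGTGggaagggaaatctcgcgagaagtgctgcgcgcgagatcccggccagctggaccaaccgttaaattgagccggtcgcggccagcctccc
Dazl: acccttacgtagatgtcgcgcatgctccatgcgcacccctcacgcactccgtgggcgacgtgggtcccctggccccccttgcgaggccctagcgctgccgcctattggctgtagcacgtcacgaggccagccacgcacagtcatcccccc

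The germline promoters were CpG-rich, and 5 of 7 genes had a CACGTG. In the windows of Sycp3, Ddx4, Mael, Stk31 and Sycp1 it occurred at least 1 time, with 2 copies in Sycp3, whereas Dazl and Asz1 had none. A CACGTG, which reads alike on both strands, was present in 7.15% of all 32851 promoter windows and in 11.3% of those with a CpG observed/expected ratio of at least 0.6. GCGGGA, the E2F6-type hexamer, occurred on either strand in 4 of the 7 genes (Sycp1, Sycp3, Ddx4 and Mael), against 6562 of all 32851 windows and 43.1% of the CpG-rich ones. The only copy in Sycp1 and 1 of the 2 in Mael lay after the start site, outside the stretches shown. No copy of one hexamer overlapped a copy of the other. In Ddx4 the first base of CACGTG stood 29 bases before the start site, and in Sycp3 the 2 copies stood 64 and 43 bases before it. The CpG observed/expected ratio, in which 1 means as many CpG as the C and G content predicts, lay between 0.666 in Sycp3 and 0.978 in Ddx4, with a median of 0.384 over all windows. The 8 windows held 15 to 38 CpG, against a median of 7. Presence of the hexamers is a description of the letters in these windows and says nothing about what bound there.

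**Figure D1:**
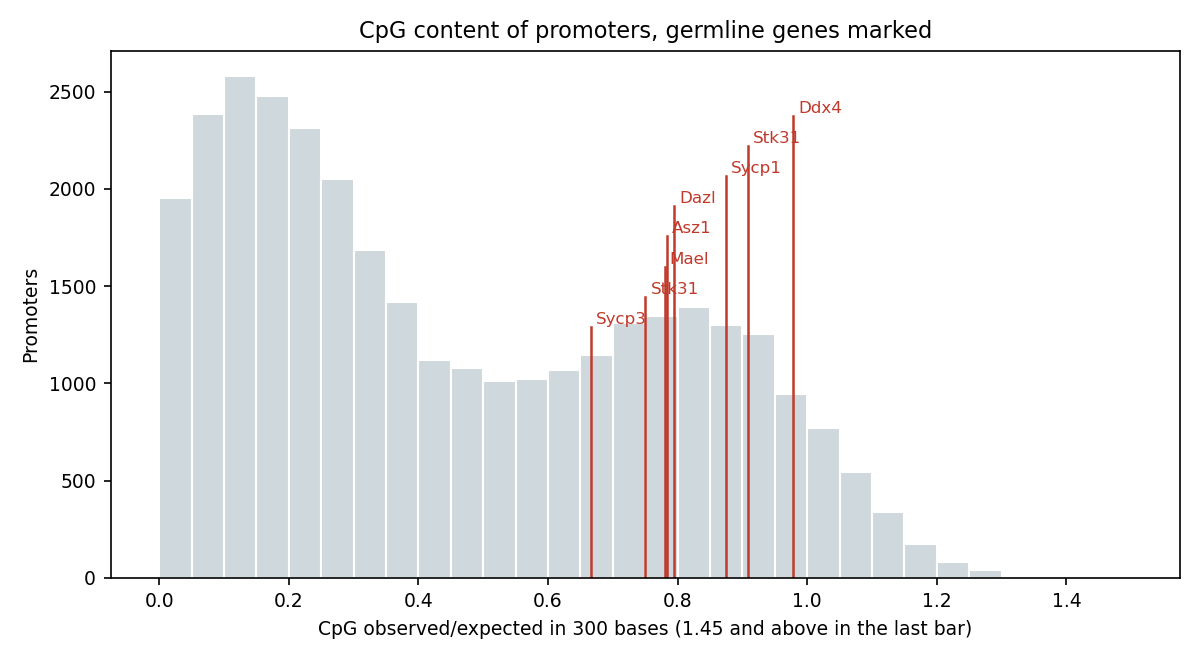
CpG observed/expected ratio (x axis) of 32851 promoter windows of 300 bases (grey bars, y axis in promoters), with the 8 windows of 7 germline genes as red lines whose height only separates the names. The red lines lie between 0.666 and 0.978, in the CpG-rich part of the distribution, whose overall median is 0.384.

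The arrays were close to each other in scale. The deposited RMA values are log2 values, so a difference of 1 is a change of 2-fold, and array medians lay between 5.84 and 5.89. Rax had 8.58 and 8.88 in GFP- cells, against 10.70 and 10.86 in GFP+ cells. The rostral marker Six3 had 11.24 and 11.57 in GFP- cells, against 12.19 and 12.33 in GFP+ cells. The caudal marker Irx3 had 9.67 and 8.95 in GFP- cells, against 6.88 and 6.57 in GFP+ cells. These markers went in the direction of the sort. The GFP- values of Rax and Six3 still lay above the upper quartile of every array (8.25 to 8.29), so GFP- cells did not lack rostral transcripts. Markers of other cell states moved with the sort, where 5.40% of all genes passed limma as higher and 2.63% as lower in GFP- cells. Of 10 pluripotency genes, 7 passed limma as higher and none as lower in GFP- cells, with a mean log2 level over the list of 9.08 and 9.02 on the GFP- arrays, against 7.26 and 7.02 on the GFP+ arrays. Of 9 endoderm genes, 8 were higher (mean level 8.29 and 8.46 in GFP-, against 5.93 and 6.47 in GFP+ cells), of 6 primed epiblast genes 4 were higher, and of 5 early neural genes 4 were lower. The part of these cells in the germline values was not tested. In sorted bulk RNA, more cells with a transcript and more transcript per cell cannot be told apart.

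Morc1 had the widest gap between the sorted groups among the 10 genes. Morc1, a chromatin ATPase required for meiosis and for transposon silencing in male germ cells, had 7.04 and 7.13 in GFP- cells, against 3.88 and 3.54 in GFP+ cells. Its log2 difference was 3.37 (standard error 0.13), or 10.4-fold, and the lower GFP- array stood 3.16 above the higher GFP+ array. Both GFP+ values of Morc1 lay below the lower quartile of every array (4.22 to 4.29), so this fold is set against a level not known to be above background. Mael, a component of the nuage, the germ cell granule in which piRNAs are made, had 6.31 and 6.29 in GFP- cells, against 4.44 and 4.28 in GFP+ cells, a log2 difference of 1.94 (standard error 0.09). The GFP- arrays of Mael were almost identical, with an SD of 0.01. Asz1, another piRNA pathway protein, located on mitochondria of germ cells, showed no such gap at its more expressed probe set, with 5.10 and 5.13 in GFP- cells, against 4.97 and 5.36 in GFP+ cells. That probe set was the single one of the 13 at which the groups overlapped. The second probe set of Asz1 had 4.19 and 4.01 in GFP- cells, against 3.54 and 3.70 in GFP+ cells, so the log2 differences of this gene were -0.05 and 0.48.

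The synaptonemal complex genes separated from each other. Sycp3, a protein of the lateral elements that form along meiotic chromosomes, had 10.69 and 10.54 in GFP- cells, against 8.62 and 8.55 in GFP+ cells, a log2 difference of 2.03 (standard error 0.09), or 4.09-fold. Its GFP+ values also lay above the upper quartile of every array (8.25 to 8.29), so its signal was high in both groups. Sycp1, the transverse filament that joins the lateral elements, had 2.78 and 2.85 in GFP- cells, against 2.60 and 2.64 in GFP+ cells, a log2 difference of 0.20. The values of Sycp1 lay below the lower quartile of every array (4.22 to 4.29). Its promoter window, with both hexamers, had a CpG ratio of 0.874.

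Dmrt1, Ddx4 and Dppa3 had both GFP- arrays above both GFP+ arrays, by different amounts. Dmrt1, a DM-domain transcription factor of germ cells and of the testis, had 7.91 and 7.97 in GFP- cells, against 5.50 and 5.34 in GFP+ cells, a log2 difference of 2.52 (standard error 0.09), or 5.75-fold. Ddx4, the germ cell RNA helicase also called Vasa, had 6.26 and 5.88 in GFP- cells, against 5.0 and 4.52 in GFP+ cells, a log2 difference of 1.31 (standard error 0.22). Ddx4 had the widest standard error of the 13 probe sets, and the groups stood 0.87 apart. Dppa3, also called Stella, which protects the maternal genome from demethylation in the zygote, had 5.60 and 5.72 in GFP- cells, against 4.60 and 4.89 in GFP+ cells, a log2 difference of 0.92 (standard error 0.12). Dppa3 differed by less than 2-fold (1.89-fold).

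Dazl and Stk31, each with 2 probe sets, were dim on all arrays. For Dazl, an RNA-binding protein needed for germ cell development, the more expressed probe set had 4.64 and 4.66 in GFP- cells, against 4.05 and 4.16 in GFP+ cells, and the other had 4.31 and 4.66, against 3.0 and 3.23. The log2 differences were 0.54 and 1.37. Stk31, a Tudor-domain kinase-like protein of germ cells, had 4.24 and 3.89 in GFP- cells, against 3.15 and 3.35 in GFP+ cells, at a probe set whose suffix (x) marks probes that may bind other transcripts. At its other probe set it had 4.23 and 4.41 in GFP- cells, against 2.92 and 2.74 in GFP+ cells, and the log2 differences were 0.81 and 1.49. For both genes the less expressed probe set showed the larger difference, and all GFP+ values lay below the lower quartile of every array.

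**Figure D2:**
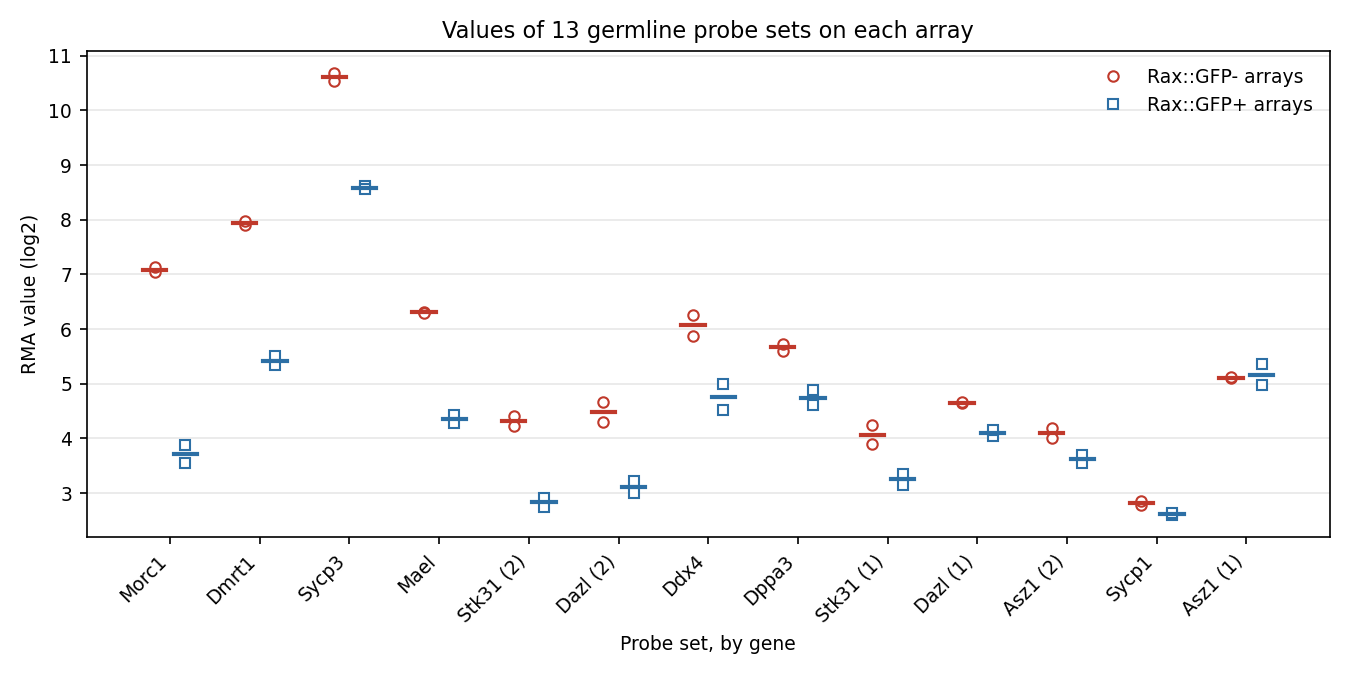
RMA value (log2, y axis) of the 13 germline probe sets (x axis, ordered by difference) on each array, GFP- as red circles and GFP+ as blue squares, with bars for the mean of 2 arrays. Numbers in brackets separate probe sets of a gene, with 1 for the more expressed. Both red circles lie above both blue squares at 12 of the 13 probe sets, and Asz1 (1) is the exception.

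Among the 13 probe sets, log2 differences ran from -0.05 to 3.37 with a median of 1.31, and over all probe sets the median was 0.03. Both GFP- arrays were above both GFP+ arrays at 12 of the 13, where 32.5% of all probe sets had this order, and 7 of the 13 had a log2 difference over 1, against 1.39% of all. By the more expressed probe set of each gene, 7 of the 10 had an adjusted p under 0.05 from limma, and 5.40% of all genes were called higher in that way. By any of its probe sets 8 of the 10 were, against 6.64% of genes. At the level of probe sets 9 of the 13 were called higher, against 3.64% of all, and none lower, against 3.82% of all. These shares follow from how the genes were chosen and nothing is read from them. Replicate arrays differed at the 13 probe sets by up to 0.39 in GFP- cells and up to 0.48 in GFP+ cells, with medians of 0.12 and 0.17. Only 7 of the 13 reached a log2 value of 5 on at least 2 arrays, and 3 of these 7 (Morc1, Mael and Dppa3) did so through the GFP- arrays alone. The deposited values hold no detection call, so whether the dimmer probe sets were above background is not known.

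**Figure D3:**
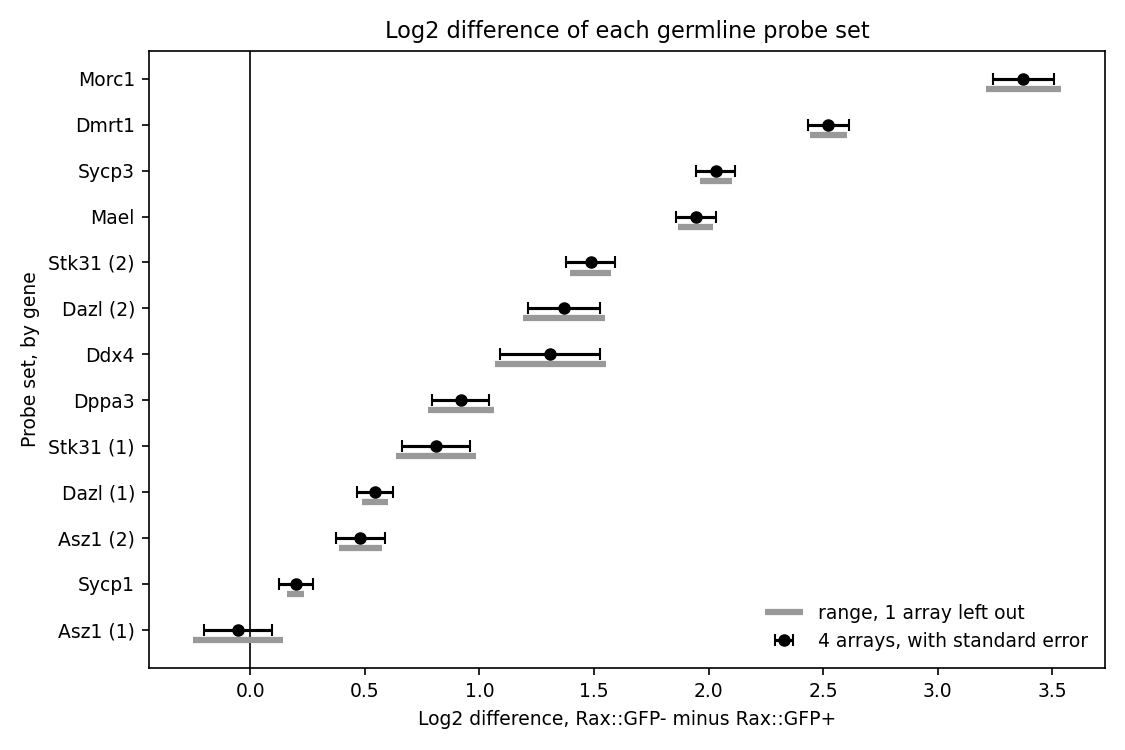
The 13 germline probe sets (y axis) by their log2 difference, GFP- less GFP+ (x axis). Points with bars are the estimate and its standard error from 4 arrays, grey bars span the estimates after 1 array was left out, and only the bar of Asz1 (1) crosses 0, from -0.25 to 0.14.

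Calls over all probe sets, 3367 with all 4 arrays, fell when any 1 array was left out. Fewer calls at the germline genes are therefore not particular to them. These genes were chosen with their difference known, so calls kept or lost at them are no test. Without GFP+ replicate 1, 4 of the 7 genes stayed under an adjusted p of 0.05, where 820 of all 45101 probe sets were called, and without GFP+ replicate 2, 5 did, where 2978 were called. Without either GFP- array, limma called 0 of all probe sets, although 7704 and 7697 had an unadjusted p under 0.05. Over the 4 arrays left out, the difference of Morc1 ran from 3.21 to 3.54, that of Ddx4 from 1.07 to 1.55 and that of Stk31, at its more expressed probe set, from 0.64 to 0.98, and Asz1 turned sign. An exact permutation test of 2 against 2 arrays cannot give a two-sided p below 0.333.

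The question whether other germline genes differed between the sorted cells was asked of 5 lists written by role, with 88 measured genes. The lists were written with earlier results of these data known, so their counts are a description. Of these, 13 passed limma as higher in GFP- cells (14.8%, against 5.40% of all genes) and 1 as lower (against 2.63% of all genes). The median log2 difference was highest for germ cell specification (0.42) and 0.26 for piRNA and nuage, 0.25 for other germline genes, 0.18 for meiotic chromosomes and 0.13 for spermatid and oocyte genes, and 0.05 over all genes. Leaving out 1 array lowered calls over all probe sets, as given above, so fewer calls in these lists are not particular to them. Without GFP+ replicate 1, 6 genes were higher, of which 4 were among the 13, and without GFP+ replicate 2, 10 were, of which 9 were among the 13. Without either GFP- array, none was called.

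The list of piRNA pathway and nuage genes, which also takes in Dnmt3l, held the most calls. Of its 20 measured genes, 6 were higher (30%, against 5.40% of all genes) and none lower (against 2.63%). Dnmt3l, the cofactor of de novo DNA methyltransferases in germ cells and ESCs, had 8.53 and 8.75 in GFP- cells, against 6.27 and 6.38 in GFP+ cells, which differed by 2.31 on the log2 scale (standard error 0.11, adjusted p = 0.00551). Tex19.1, a placental and germ cell protein involved in transposon control, had 7.40 and 7.74 in GFP- cells, against 5.85 and 5.95 in GFP+ cells (log2 difference 1.67, adjusted p = 0.0114). The Tudor-domain genes Rnf17 (0.87, adjusted p = 0.0132), Tdrd12 (0.76, adjusted p = 0.0218) and Tdrd5 (0.55, adjusted p = 0.0413), and Gpat2 (0.59, adjusted p = 0.0469), were also higher. Tdrd7, expressed in many tissues, differed by 0.04 and the helicase gene Ddx25 by -0.17 (adjusted p = 0.781 and 0.224). Dnmt3l alone of the 6 kept its call without GFP+ replicate 1, where Tex19.1 had an adjusted p of 0.0545, and Tdrd5 and Gpat2 lost theirs without either GFP+ array.

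Meiotic chromosome genes mostly did not pass, with 2 of 27 higher (7.41%, against 5.40% of all genes) and none lower (against 2.63%). Rec114, a factor of meiotic double-strand break formation, had 7.03 and 7.0 in GFP- cells, against 5.72 and 5.88 in GFP+ cells (log2 difference 1.21, standard error 0.09, adjusted p = 0.00928). Syce1, a central element protein of the synaptonemal complex, had 5.76 and 6.24 in GFP- cells, against 4.87 and 5.03 in GFP+ cells (1.05, adjusted p = 0.0466), and lost its call without either GFP+ array. Tex15, with 9.94 and 9.29 in GFP- cells, against 8.77 and 8.36 in GFP+ cells, differed by as much but with a standard error of 0.26 (adjusted p = 0.0910). Syce2, another central element gene, differed by 0.18 (adjusted p = 0.221).

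Of the 18 other germline genes, 4 were higher (22.2%, against 5.40% of all genes) and none lower (against 2.63%). Dppa2 had 7.41 and 7.51 in GFP- cells, against 4.60 and 4.49 in GFP+ cells (log2 difference 2.92, standard error 0.09, adjusted p = 0.00440), and Dppa4 had 9.24 and 9.35, against 7.52 and 7.44 (1.82, adjusted p = 0.00551). Both are SAP-domain proteins of pluripotent as well as germ cells and bind each other. The bHLH factor gene Sohlh2 (0.76, adjusted p = 0.0459) and Tex14, of the intercellular bridge (0.50, adjusted p = 0.0443), were higher. Both lost their call without GFP+ replicate 1, and Tex14 also without GFP+ replicate 2. Hsf2bp differed by 1.29 with an adjusted p of 0.0539, and its GFP+ arrays stood apart at 5.62 and 4.92. Hspa2 differed by 0.40 (adjusted p = 0.141).

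Early germ cell factors were called in both directions, and late germ cell genes were not called. Of 7 measured specification genes, limma called 1 higher in GFP- cells (14.3%, against 5.40% of all genes) and 1 lower (against 2.63%). The higher one was Tfap2c (0.86, adjusted p = 0.0124), a transcription factor of primordial germ cells. The lower one was Prdm1 (-0.60, adjusted p = 0.0327), also called Blimp1, the repressor that begins germ cell specification. Prdm1 had 5.25 and 5.29 in GFP- cells, against 5.80 and 5.95 in GFP+ cells. Both calls were lost without GFP+ replicate 1, and that of Prdm1 also without GFP+ replicate 2. The interferon-induced membrane protein genes Ifitm1 and Ifitm3 differed by -0.42 and 0.02 (adjusted p = 0.0634 and 0.914). Prdm14, Kit and Dnd1, also uncalled, differed by 0.64, 0.59 and 0.42 (adjusted p = 0.0693, 0.0747 and 0.0532), with Prdm14 below a log2 value of 5 on all arrays. At an unadjusted p under 0.05 from limma, 4 of the 7 were higher in GFP- cells and 2 lower. Of 16 genes of spermatids and oocytes, limma called 0, where 5.40% of all genes were called higher and 2.63% lower. A list of this size can hold no call at such shares. Only 6 of the 16 reached a log2 value of 5 on at least 2 arrays. At an unadjusted p under 0.05 from limma there were 2 of these genes, and the log2 differences of the 16 lay between -0.29 and 0.46. Among them were the protamine gene Prm1 (0.02) and the oocyte growth factor gene Gdf9 (0.14).

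**Figure D4:**
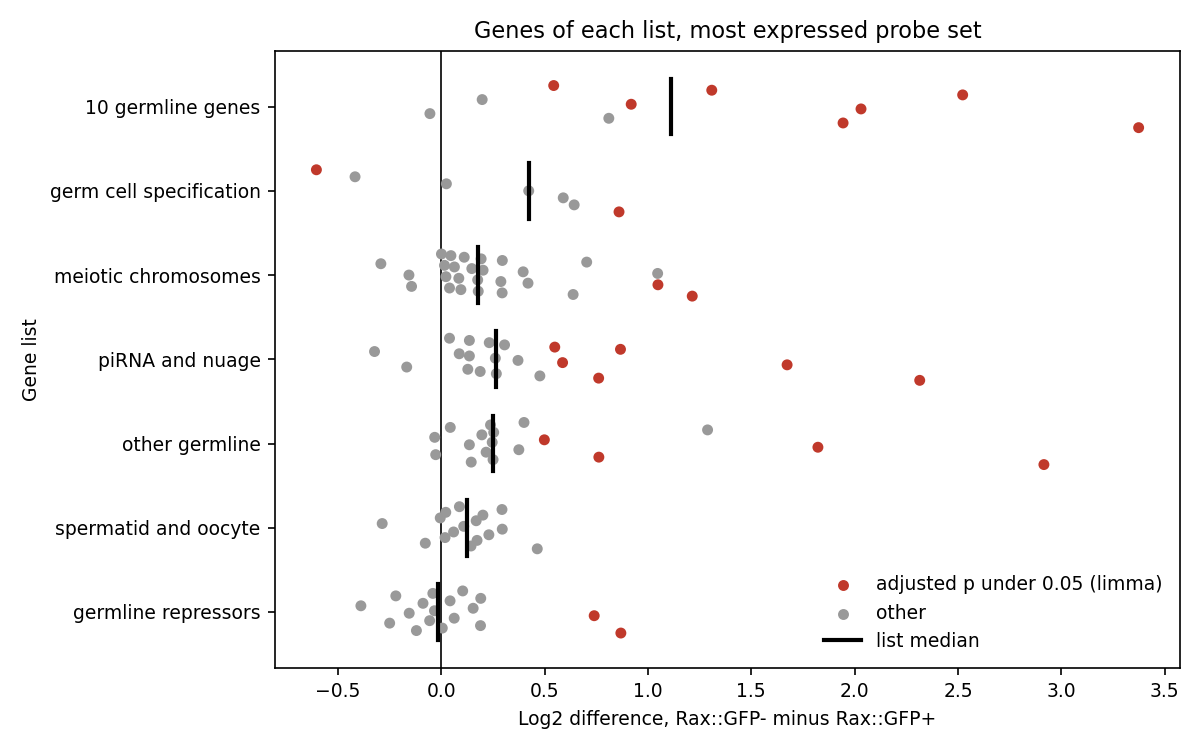
Genes of each list (y axis) by their log2 difference, GFP- less GFP+ (x axis), by the most expressed probe set, red where limma's adjusted p is under 0.05 and grey otherwise, with black bars for list medians. The top row holds the 10 germline genes, chosen with this difference known (median 1.11), and below it only piRNA and nuage and other germline genes have calls above 1.5.

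Of 18 measured repressors of germline genes, limma called 2 higher in GFP- cells (11.1%, against 5.40% of all genes) and 0 lower (against 2.63%). In each direction 3 had an unadjusted p under 0.05, and the median log2 difference was -0.01. Both called genes were de novo DNA methyltransferases, and Dnmt3b is also among the primed epiblast genes counted above. Dnmt3b had 13.61 and 13.63 in GFP- cells, against 12.70 and 12.80 in GFP+ cells (0.87, adjusted p = 0.0126), and Dnmt3a had 10.77 and 10.94, against 10.11 and 10.12 (0.74, adjusted p = 0.0230). Both calls were lost without GFP+ replicate 1, and that of Dnmt3a also without GFP+ replicate 2. Among PRC1.6 components, Yaf2 differed by -0.39 (adjusted p = 0.0766) and Ring1 by -0.22 (adjusted p = 0.180). E2f6, Mga, Max, L3mbtl2, Pcgf6 and Rnf2 differed by -0.06, -0.12, 0.19, 0.15, 0.19 and -0.09, and none of these 8 components passed. Uhrf1 and Tfdp1 differed by -0.04 and -0.03. Of the 3 Tet enzymes, which oxidize methylated cytosine, Tet1 differed by 0.14 (adjusted p = 0.297) and Tet2 by -0.38 (adjusted p = 0.0580). These are RNA levels, and DNA methylation was not measured on these arrays.

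Neighbouring genes show whether a difference stood alone along the chromosome. For each of the 10 genes the 3 nearest measured genes on each side were read in the order of the GRCm38.p6 gene table, which gave 60 neighbours. Of these, 7 were higher in GFP- cells (11.7%, against 5.40% of all genes) and 1 was lower (against 2.63%), with a median log2 difference of 0.05, and 6 of the 10 germline genes had no neighbour called higher. Dmrt1, with the second largest difference, had its paralogs Dmrt3 (-0.44, adjusted p = 0.228) and Dmrt2 (0.26, adjusted p = 0.110) next to it on one side and Kank1 (0.0) on the other, and none of its 6 neighbours passed. Beside Mael, the neighbour Ildr2 was lower, with 8.44 and 8.15 in GFP- cells, against 9.31 and 9.23 in GFP+ cells (-0.97, adjusted p = 0.0251). Neither the neighbours of Dazl nor those of Stk31, Asz1 and Sycp1 passed.

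Calls among neighbours came together at Morc1, Dppa3 and Sycp3. On one side of Morc1, beyond the uncalled Gm5485, lay Dppa2 and Dppa4, described above, while Trat1, Retnlb and Retnla on the other side differed by 0.01, 0.26 and 0.07. Dppa3 lay between Gdf3, a TGF-beta ligand of pluripotent cells (1.38, adjusted p = 0.0311), and the pluripotency factor gene Nanog. Nanog had 9.58 and 9.34 in GFP- cells, against 6.23 and 5.66 in GFP+ cells (adjusted p = 0.00761). One gene further out, Apobec1 and Slc2a3 differed by -0.02 and 0.05. Beside Sycp3, Dram1, a lysosomal membrane protein gene, had 7.18 and 7.29 in GFP- cells, against 4.80 and 5.20 in GFP+ cells (2.24, adjusted p = 0.00859), and Gnptab differed by 0.45 (adjusted p = 0.0428). Il6st, the shared receptor of the interleukin-6 family and of LIF, lay near Ddx4 and was higher by 0.63 (adjusted p = 0.0257) at its most expressed probe set, but by the mean of all its probe sets the difference was 0.10 (adjusted p = 0.432). By that mean Gdf3 differed by 0.90 and was still called. Without GFP+ replicate 1, 4 of the 7 calls remained (Dppa2, Dppa4, Dram1 and Nanog), without GFP+ replicate 2, 6 did, and without either GFP- array none did.

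**Figure D5:**
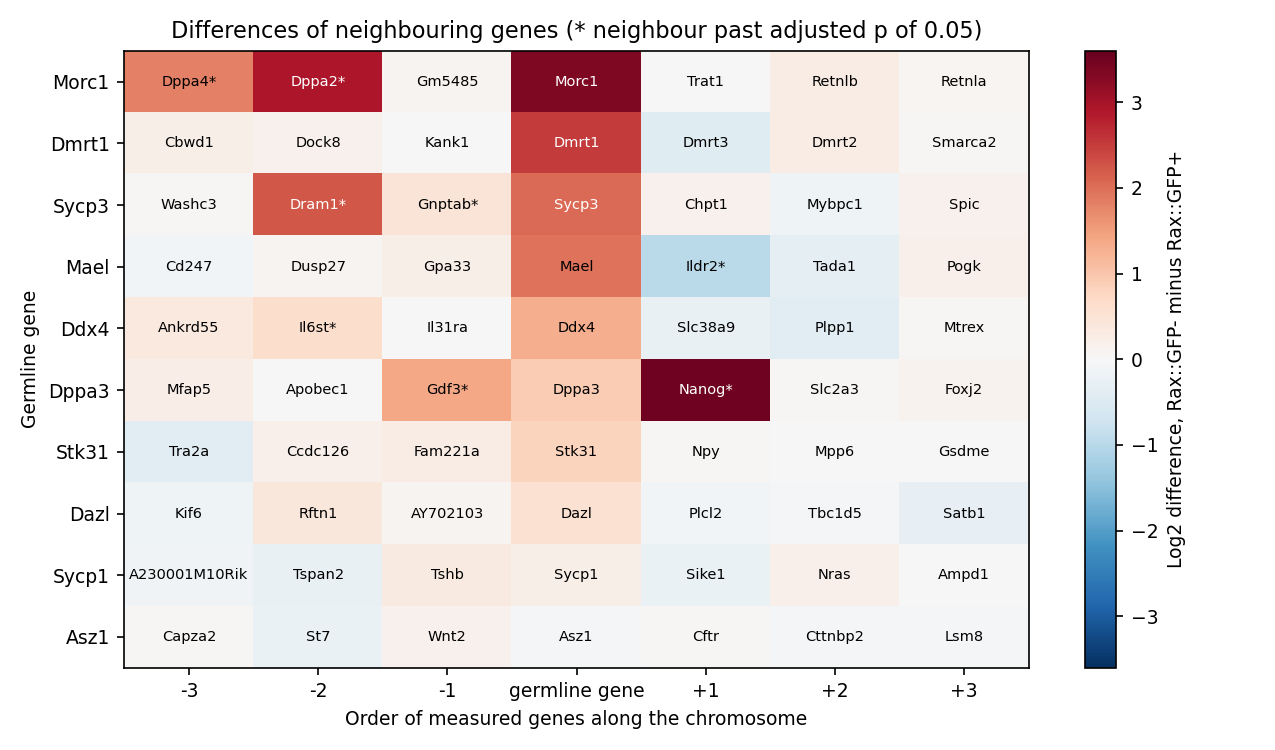
Log2 difference, GFP- less GFP+ (colour, red for higher in GFP-) for each germline gene (rows, centre column) and the 3 measured genes on each side of it (columns, in chromosome order), by the most expressed probe set. Stars mark the 8 neighbours past limma's threshold, of which 2 are at Morc1, 2 at Dppa3, 2 at Sycp3, 1 at Ddx4 and 1, lower, at Mael.

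The hexamers were also counted in the 5 germline lists. Of 69 genes with a promoter window, 18 had a CACGTG (26.1%, against 8.09% of all genes in the table) and 25 a GCGGGA (36.2%, against 5959 of 27025 genes in the table). CACGTG was found in 7 of 17 genes of piRNA and nuage, 5 of 21 meiotic chromosome genes, 5 of 15 other germline genes, 1 of 12 spermatid and oocyte genes and 0 of 4 specification genes. Among the genes called higher in GFP- cells it was present in 2 of 9 (Dnmt3l and Rec114), and among the rest in 16 of 60. Of the 13 called genes, Dppa2, Dppa4, Rnf17 and Tfap2c had no window. The largest difference of these lists (Dppa2, 2.92) is therefore not covered. The median CpG ratio was 0.577 in the called and 0.593 in the other genes. No test was run on these counts.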

How the data were processed

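Total RNA of sorted Rax::GFP- and Rax::GFP+ cells was hybridized to Affymetrix mouse arrays, 2 per group, which the study's methods call biological duplicates. The deposited values are log2 signals per probe set, which the authors obtained by RMA (background correction, quantile normalization and summary of probes). R 2.13.0 is named in the submitters' processing notes. A difference in total RNA between groups therefore cannot be seen. The number of arrays limits the precision.

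A 2-group model, GFP- minus GFP+, was fitted to them by limma 3.58.1 (R 4.3.3), with no block and no filter (2 residual degrees of freedom, prior 2.52). Benjamini-Hochberg adjustment covered all 45101 probe sets, 64 of them controls, and calls were made at 0.05. The fit was tested on simulated data. Gene names came from the platform annotation, in which 34958 probe sets had 1 symbol, 932 several and 9211 none, and probe sets with several were not named. Each gene is read at the probe set with its highest mean, except for the 10 genes, where all are given.

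The 10 genes, the gene lists and the rule for named genes were chosen with earlier results of these data known. The rule took, from each list, at most 4 called genes of the largest difference and the 2 brightest uncalled ones, and other genes named were chosen after their values were seen. Neighbours and promoters (RefSeq, GRCm38.p6) were matched by gene identifier and symbol. The alternatives were a replicate block, Storey's q-value, a filter of log2 5 on at least 2 arrays, median centring, quantile normalization, an intensity trend, averaging the probe sets of each gene, and leaving out each array.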

Additional observations from a re-analysis of the deposited data

How the results depend on the processing

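Apart from Storey's q-value, which changes no difference, the alternatives gave 97 values for the log2 differences of the 10 genes, of which 65 kept direction and side of the threshold, 26 lost the call, 4 gained it (Stk31) and 2 turned sign. The 2 were Asz1 without GFP+ replicate 2 (0.14, against -0.25 without GFP+ replicate 1) and by the mean of its probe sets (0.21). Since the 10 genes were chosen with their difference known, calls kept, lost or gained at them are no test. The replicate numbers in the labels are not stated to mark a shared culture or sort, and deviations of same-numbered arrays correlated at -0.0514 over all probe sets. With the replicate block, 0 probe sets, 0 of the 10 genes, 0 wider germline genes and 0 neighbours were called by limma, where 11019 probe sets had an unadjusted p under 0.05. The differences themselves do not change with the block. Called probe sets, 3367 in all, numbered 6134 with Storey's q-value and 6962 with the intensity trend. Wider germline genes called higher, 13 in all, numbered 23 with Storey's q-value, 21 with the trend and 22 by the mean of all probe sets. Leaving out 1 array gave 0 to 2978 called probe sets, 0 to 5 of the 10 genes, 0 to 10 wider germline genes and 0 to 6 neighbours, with 0 in each case without a GFP- array. Where a group was left with 1 array, its spread was taken from the other group. Centring gave 1980 higher and 1612 lower probe sets, against 1642 and 1725. The filter left 7 of the 13 probe sets, so Dazl, Stk31 and Sycp1 could not be read there.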
